A study of Mus musculus with 40 samples.

Results

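The uncoupling proteins Ucp2 and Ucp3 were followed in the hearts of adult mice whose dams, and who themselves, had eaten a high-fat or a low-fat diet. Both genes were taken with every probe annotated to them in the deposited array table, whatever its level. Of the 25697 probes, 2 qualified, and both belonged to Ucp3 (Entrez gene 22229). For Ucp2 (Entrez gene 22228) 0 probes matched by symbol, gene identifier or accession, so Ucp2 was not analysed here. Ucp3 was chosen by its measured difference between the post-weaning diets, which had opposite signs by maternal diet in these same hearts. All differences of Ucp3 between the diet groups therefore describe the choice, and no test is given for them.

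Uncoupling proteins belong to the family of mitochondrial carriers, which move metabolites and ions across the inner mitochondrial membrane. Ucp1 lets protons return to the matrix of brown fat mitochondria and so releases heat, whereas the activity of Ucp3 is less settled. Ucp3 is made mainly in skeletal muscle, heart and brown fat, and its transcript is known to rise with the supply of fatty acids, in part through PPARα, the nuclear receptor that switches on genes of fatty acid oxidation.

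The hearts came from 40 male C57BL/6J mice of 9 weeks, with 1 array per animal and 10 animals in each group. Groups carry the maternal diet first and the post-weaning diet second: HF_HF, HF_LF, LF_HF and LF_LF, where HF is a high-fat, low-carbohydrate diet and LF a low-fat, high-carbohydrate one. Dams ate their diet from before mating until weaning, so effects before birth and during lactation cannot be told apart. The animals of a group came from 4 cages, or 5 in HF_LF, and no cage number occurred under both maternal diets.

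The deposited intensities, on a linear scale, ran from 47.5 to 31454.1, and 12645 probes lay above the median of their array on at least 20 arrays and were tested. Of 10 cardiomyocyte markers 9 were tested, and their mean score lay between -0.32 and 0.19 on the log2 scale around the median of all hearts. In 16 hearts (3 of HF_HF, 5 of HF_LF, 3 of LF_HF and 5 of LF_LF) the mean score of fast skeletal muscle, brown adipocyte, adipocyte, exocrine pancreas or hepatocyte markers exceeded 1. The arrays also fell into sets of 25 and 15 on the dim probes, and each diet group held arrays of both sets. Values of Ucp3 without these 16 hearts and within each set are given below.

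Ucp3 lies on chromosome 7 from 100472991 to 100486432 on the forward strand of GRCm38.p6 and is followed by Ucp2 6904 bases further on. Its promoter is shown because Ucp3 varied between hearts together with PPARα target genes, as described below. The window chr7:100472741-100473040 (RefSeq, GRCm38.p6, forward strand) runs from 250 bases before the annotated start to 50 bases after it. Capitals mark AGGTCA, a core site recognised by many nuclear receptors, and CAGCTG, an E-box of the kind bound by muscle regulatory factors.
Ucp3 promoter: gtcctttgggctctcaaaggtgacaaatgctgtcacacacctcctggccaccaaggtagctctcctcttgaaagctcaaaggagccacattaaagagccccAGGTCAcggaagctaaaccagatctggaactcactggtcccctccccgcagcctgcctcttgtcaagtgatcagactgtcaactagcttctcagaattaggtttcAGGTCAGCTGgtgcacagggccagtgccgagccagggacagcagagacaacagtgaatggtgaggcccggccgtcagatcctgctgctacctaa
AGGTCA, searched on both strands, occurred at 149 and 44 bases before the start, both times on the forward strand. CAGCTG occurred once, 40 bases before the start, and overlaps the second AGGTCA. Of 32851 mouse promoter windows of the same length, 16.3% held AGGTCA, 1.81% held it more than once and 16.3% held CAGCTG. The direct repeat AGGTCANAGGTCA, with any base at N, was in 0.0396% of windows and is not in this one. A match of letters describes the window and does not show binding.

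Both Ucp3 probes were annotated to the same transcript (NM_009464), so they are repeat measurements of 1 gene and not independent members. Both lay above the array median on all 40 arrays. Their log2 intensities correlated across hearts with r = 0.86, and with r = 0.84 once each value was centred on its group (n = 40). Within single groups r ranged from 0.76 in HF_HF to 0.90 in LF_HF (n = 10 each). The same hearts were therefore low or high on both probes. Heart 122 was the lowest of HF_HF, heart 109 the lowest of HF_LF and heart 101 the lowest of LF_LF on both of them.

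On probe ILMN_2452102 the HF_HF hearts had the highest group median of Ucp3 intensity, with 187.7 as the lowest, 311.4 as the median and 346.8 as the highest value. The HF_LF hearts gave 145.8, 232.6 and 284.7 for the same 3 values. Of the HF_HF hearts, 8 of 10 lay above every HF_LF heart, and the groups overlapped through heart 122, at 187.7, and 1 further HF_HF heart. The difference HF_HF minus HF_LF was 0.44 on the log2 scale (SE 0.11), or 1.36-fold. Across all tested probes, 0.862% passed the test of this comparison (limma, adjusted p under 0.05), and the middle of the distribution, its 5th to 95th percentile, ran from -0.13 to 0.14.

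In offspring of LF-fed dams the order of the post-weaning diets was turned round. The LF_HF hearts gave 181.2, 241.7 and 318.2 as lowest, median and highest intensity on ILMN_2452102, and the LF_LF hearts 217.5, 273.9 and 359.5. The groups overlapped widely: 3 LF_HF hearts lay below every LF_LF heart, and 3 LF_LF hearts above every LF_HF heart. LF_HF minus LF_LF was -0.24 (SE 0.11), with 8 of 10 LF_HF hearts below the LF_LF median. In this comparison 2.72% of the tested probes passed, and their 5th to 95th percentile ran from -0.19 to 0.22.

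The second probe, ILMN_1233132, showed the same signs at smaller size. Its HF_HF hearts ran from 171.9 to 247.2 with a median of 218.6, against 121.2 to 252.4 with a median of 168.2 in HF_LF. All 10 HF_HF hearts exceeded the HF_LF median, although heart 128 of HF_LF, at 252.4, lay above all of HF_HF. The difference was 0.30 (SE 0.10). The LF_HF hearts ran from 141.5 to 238.9 (median 189.0), against 145.5 to 252.0 (median 193.8) in LF_LF, and the difference of -0.085 (SE 0.11) was smaller than its standard error, with 5 of 10 LF_HF hearts on each side of the LF_LF median. The sign in offspring of LF-fed dams thus rests on ILMN_2452102.

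**Figure D1:**
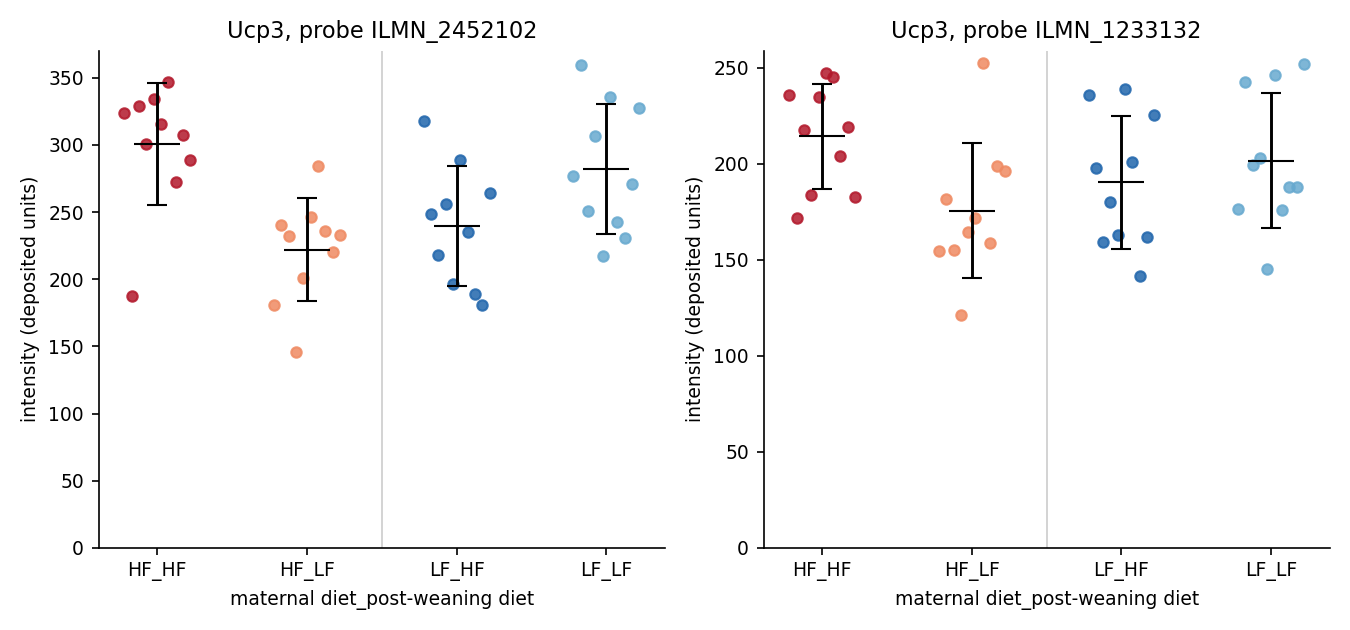
Ucp3 intensity in each of the 40 hearts for both probes, with the groups named as maternal diet_post-weaning diet. Points are hearts, and black bars give the mean and SD of 10 hearts: on ILMN_2452102 the means were 300.6 in HF_HF, 222.2 in HF_LF, 239.6 in LF_HF and 282.1 in LF_LF.

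Read across the maternal diets, the same hearts gave a positive and a negative difference. In HF-fed offspring, HF_HF minus LF_HF was 0.33 (SE 0.11) on ILMN_2452102 and 0.18 (SE 0.096) on ILMN_1233132. In LF-fed offspring, HF_LF minus LF_LF was -0.35 (SE 0.11) and -0.21 (SE 0.11). Under other ways of processing, the difference in HF-fed offspring ran from 0.30 to 0.43 and from 0.083 to 0.26, and that in LF-fed offspring from -0.55 to -0.26 and from -0.43 to -0.12. Of all tested probes, 0% passed limma's test in HF-fed offspring, where 1429 had an unadjusted p under 0.05, and 0.0395% passed in LF-fed offspring.

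Hearts whose diet matched that of their dam differed little, as did those whose diet had been switched. HF_HF minus LF_LF was 0.093 (SE 0.11) on ILMN_2452102 and 0.096 (SE 0.10) on ILMN_1233132. LF_HF minus HF_LF was 0.11 (SE 0.12) and 0.12 (SE 0.12). The order of the group means on ILMN_2452102 was HF_HF, LF_LF, LF_HF and HF_LF, and in this order the neighbours HF_HF with LF_LF and LF_HF with HF_LF differed by less than the SE of their difference. Of the 10 hearts with the highest intensity on this probe, 6 were HF_HF and 3 LF_LF, whereas of the 10 lowest, 4 were LF_HF and 4 HF_LF. Averaged over the maternal diets, the post-weaning difference was 0.10 (SE 0.079) and 0.11 (SE 0.076), since the opposite signs cancelled.

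The difference between the post-weaning responses, or interaction, was 0.68 (SE 0.16) on ILMN_2452102 and 0.39 (SE 0.15) on ILMN_1233132. By size with its sign, these stood in places 8 and 33 of the 12645 tested probes. Since Ucp3 was chosen by this same pattern, its places describe the choice and lend it no support. In the interaction 0% of tested probes passed (limma), and 431 had an unadjusted p under 0.05. The 5 named genes with larger positive values were Adipoq (0.92) and Car3 (0.87), both abundant in fat, Acta2 (0.73), the smooth muscle actin, Hp (0.72), which encodes haptoglobin, and Angptl4 (0.70), an inhibitor of lipoprotein lipase. Their standard errors, from 0.23 for Angptl4 to 1.01 for Car3, exceeded that of Ucp3, and each had an adjusted p of 0.943 (limma). Among them Acta2 and Hp had the signs of Ucp3, whereas Adipoq and Car3 were lower in HF-fed offspring under both maternal diets (-0.35 and -1.27 for Adipoq) and Angptl4 was higher under both.

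The signs of both Ucp3 probes were the same within each set of arrays. On ILMN_2452102 HF_HF minus HF_LF was 0.37 in the larger set and 0.58 in the smaller one, and LF_HF minus LF_LF was -0.25 and -0.20. On ILMN_1233132 these differences were 0.26 and 0.41, and -0.098 and -0.029. Without the 16 hearts that carried signal of other tissues the pattern was larger: on ILMN_2452102 the differences were 0.50 for HF-fed dams and -0.34 for LF-fed dams, and on ILMN_1233132 0.43 and -0.23. Leaving out any single heart kept every sign, with the interaction between 0.61 and 0.75 on ILMN_2452102 and between 0.33 and 0.45 on ILMN_1233132.

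Animals of 1 cage number could be set against each other where both diets were represented. By the study's methods the males of a cage were divided between the diets at weaning, so the shared number was taken to stand for origin. The labels do not say whether it does, or whether it is later housing. In 3 such cages of HF-fed dams the HF-fed animals exceeded their LF-fed cage mates on ILMN_2452102 by 0.63, 0.49 and 0.13 on the log2 scale. These were cage 10, with 1 HF-fed and 2 LF-fed animals, cage 20, with 3 and 1, and cage 23, with 3 and 3. The values of cages 10 and 20 thus each rest on 1 heart for 1 of the diets. That heart of cage 20, heart 177, was among those that carried signal of other tissues. In both such cages of LF-fed dams the HF-fed animals lay lower, at -0.25 in cage 4 (2 HF-fed and 3 LF-fed animals) and -0.52 in cage 11 (3 and 2). On ILMN_1233132 the values were 0.49, 0.61 and -0.017 for HF-fed dams, against -0.19 and -0.33 for LF-fed dams. Cage 23, the exception, held heart 122, the lowest of HF_HF, and heart 128, the highest of HF_LF.

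**Figure D2:**
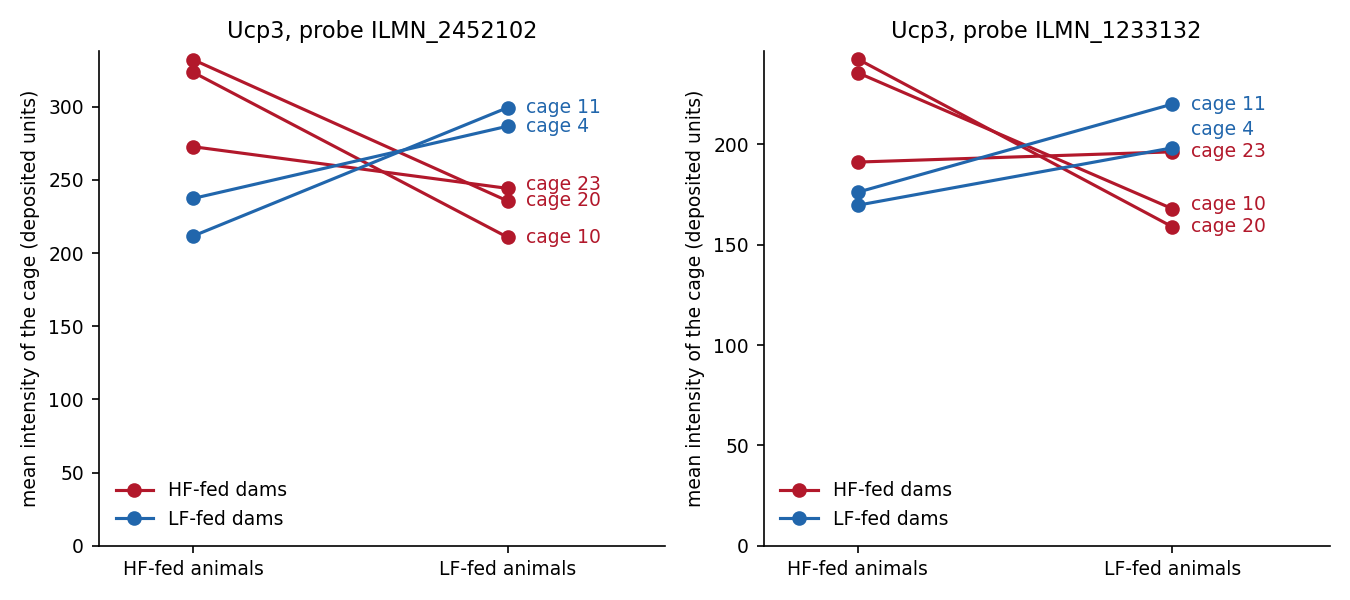
Mean Ucp3 intensity of HF-fed and LF-fed animals that shared a cage number, for both probes, with 1 line per cage of 3 to 6 animals. Lines of HF-fed dams run down from HF-fed to LF-fed animals except cage 23 on ILMN_1233132 (191.2 in HF-fed and 196.3 in LF-fed animals), while both lines of LF-fed dams run up.

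The PPARα target genes, of which 23 were tested out of 30 listed, did not share the split of Ucp3. In offspring of HF-fed dams 8 of the 23 rose and 0 fell with the post-weaning HF diet, against 0.862% of all tested probes that passed. In offspring of LF-fed dams 10 rose and 0 fell, against 2.72%. The median difference of the list was 0.25 and 0.21, while that of all tested probes was 0.00 in both comparisons. The signs of Ucp3, positive in offspring of HF-fed dams and negative in those of LF-fed dams, were found in 2 of the 23 genes (8.7%) and in 17.3% of all tested probes.

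Several of these genes handle acyl-CoA. Acot1, a cytosolic acyl-CoA thioesterase, was higher by 0.83 (SE 0.12, adjusted p = 0.00104) with the HF diet in offspring of HF-fed dams, and by 0.66 (SE 0.092, adjusted p = 0.000966) in offspring of LF-fed dams. Its mitochondrial relative Acot2 rose by 0.61 and 0.43, and these near-identical genes may share probe signal. Pdk4, a kinase that inhibits pyruvate dehydrogenase, rose by 0.72 (adjusted p = 0.006) and 0.50 (adjusted p = 0.00711, limma). Cpt2 and Slc25a20, which complete the carnitine shuttle for fatty acids, rose by 0.33 and 0.24 in offspring of HF-fed dams, and by 0.35 and 0.29 in those of LF-fed dams. Ech1, an auxiliary enzyme of the oxidation of unsaturated fatty acids, rose by 0.32 and 0.20.

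Of the targets that passed, 6 did so under both maternal diets, 2 with HF-fed dams alone and 4 with LF-fed dams alone. Cpt1b, the muscle form of the enzyme that commits fatty acids to oxidation, had 0.22 (adjusted p = 0.061) in offspring of HF-fed dams and rose by 0.31 (adjusted p = 0.0129) in those of LF-fed dams. Angptl4 rose by 0.84 (adjusted p = 0.0173) in offspring of HF-fed dams and had 0.15 (adjusted p = 0.55, limma) in those of LF-fed dams, with the interaction given above (0.70, adjusted p = 0.943). Cpt1b had an interaction of -0.086 (adjusted p = 0.943). No difference between the maternal diets is therefore shown for either gene. Hadhb, a subunit of the mitochondrial trifunctional protein, had 0.24 (adjusted p = 0.139) in offspring of HF-fed dams and rose by 0.32 (adjusted p = 0.0188, limma) in those of LF-fed dams. The other 3 were named after their values were seen. Acadm, the medium-chain acyl-CoA dehydrogenase, rose by 0.20 (adjusted p = 0.0417) in offspring of HF-fed dams and had 0.10 (adjusted p = 0.253, limma) in those of LF-fed dams, a call lost in 14 of the 20 fits that left out 1 heart and kept without heart 52 or 174 of HF_HF or 54, 126, 127 or 177 of HF_LF. Fabp3, which carries fatty acids in the cytosol, had 0.087 (adjusted p = 0.47) and 0.15 (adjusted p = 0.0363, limma), and its call was lost without hearts 97, 99, 199, 207, 208 or 209 of LF_HF or 13, 100, 101, 134 or 210 of LF_LF (adjusted p from 0.05037 to 0.07529). Etfdh, which passes electrons from fatty acid oxidation to ubiquinone, had 0.27 (adjusted p = 0.0654) and 0.25 (adjusted p = 0.0344, limma). Its call was lost without hearts 199, 200, 201 or 207 of LF_HF or 13, 14, 100, 101 or 134 of LF_LF (adjusted p from 0.05313 to 0.06468), and in offspring of HF-fed dams it passed without heart 182 of HF_HF or 108 or 127 of HF_LF (adjusted p from 0.03 to 0.04614). The interactions of these 4 genes lay between -0.079 and 0.095, with adjusted p of 0.943 for 3 of them and 0.988 for Etfdh. The differences named for Slc25a20 in offspring of HF-fed dams lost their call without any of hearts 123, 124, 172 or 174 of HF_HF or 227 of HF_LF (adjusted p from 0.05001 to 0.06296), and that of Acot2 in offspring of LF-fed dams without heart 209 of LF_HF (adjusted p = 0.0519). Cpt1b in offspring of HF-fed dams passed without heart 54, 126 or 228 of HF_LF (adjusted p from 0.03345 to 0.04615).

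**Figure D3:**
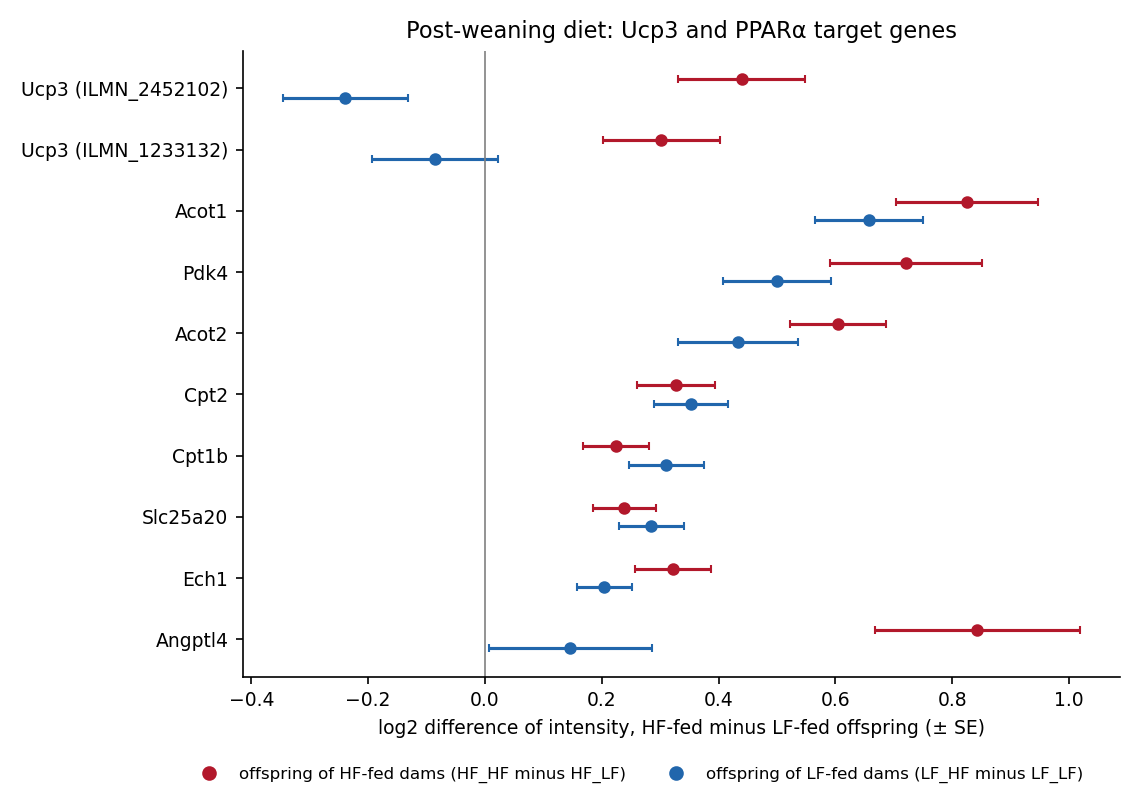
Log2 differences of intensity between HF-fed and LF-fed offspring, with standard errors, for both Ucp3 probes and 8 PPARα target genes, by maternal diet (10 against 10 hearts each). Ucp3 lies at 0.44 and -0.24 on ILMN_2452102, whereas the 8 target genes lie above 0 under both maternal diets.

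Without the 16 hearts that carried signal of other tissues, 4 of the 23 targets passed in offspring of HF-fed dams and 0 in those of LF-fed dams, with list medians of 0.30 and 0.24. In that fit 0.15% and 0.0237% of all tested probes passed. In those 24 hearts the interaction was positive in 21 of the 23 targets with a median of 0.16 (all tested probes 0.00), against 16 of 23 and 0.065 in all hearts, and 0 of them passed limma's test either way, with 1 at an unadjusted p under 0.05 in all hearts. HF_LF minus LF_LF, over only 10 hearts, was then negative in all 23, the sign that Ucp3 showed there. The median was -0.16, against -0.0069 for all tested probes. Heart 109 of HF_LF, whose targets were the lowest of all hearts by the score described below, was among the 10. In all hearts Cpt2, Acadl, Hadhb, Fabp3 and Lpl were positive there and the other targets negative. Of the 23, 1 then had an unadjusted p under 0.05 (limma).

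The PPARα target score, the mean of the 23 genes around their medians, placed every heart by its post-weaning diet. The HF_HF hearts had scores from 0.010 to 0.23 and the HF_LF hearts from -0.52 to -0.042. The LF_HF hearts had scores from 0.015 to 0.25 and the LF_LF hearts from -0.24 to 0.0047. All 10 HF-fed hearts thus lay above all 10 LF-fed hearts under either maternal diet. Ucp3 did not follow this order, and yet it did follow the score from heart to heart inside a group.

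Centred on the groups, Ucp3 correlated with the score at r = 0.72 on ILMN_2452102 and 0.69 on ILMN_1233132 (n = 40 hearts that share array processing, a description with no test). Within single groups r was 0.66 in HF_HF, 0.81 in HF_LF, 0.81 in LF_HF and 0.62 in LF_LF on ILMN_2452102, and between 0.59 and 0.76 on ILMN_1233132 (n = 10 each). Gene by gene, 19 and 21 of the 23 targets had a positive r with the Ucp3 probes, with medians of 0.38 and 0.28, while the median over all tested probes was 0.037 and 0.035. Heart 109 of HF_LF, the lowest of all hearts on both Ucp3 probes, also had the lowest score, at -0.52. Without it r within HF_LF was 0.44 on ILMN_2452102 and 0.45 on ILMN_1233132 (9 hearts), and over all groups 0.65 and 0.64 (39 hearts). With the score as a covariate, an alternative added after the data were seen, HF_HF minus HF_LF turned negative, at -0.14 on ILMN_2452102 and -0.22 on ILMN_1233132, and LF_HF minus LF_LF was -0.79 and -0.61. Since the scores of the diets do not overlap, these values extrapolate beyond the hearts measured. The interaction was 0.49 and 0.22 in that fit.

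**Figure D4:**
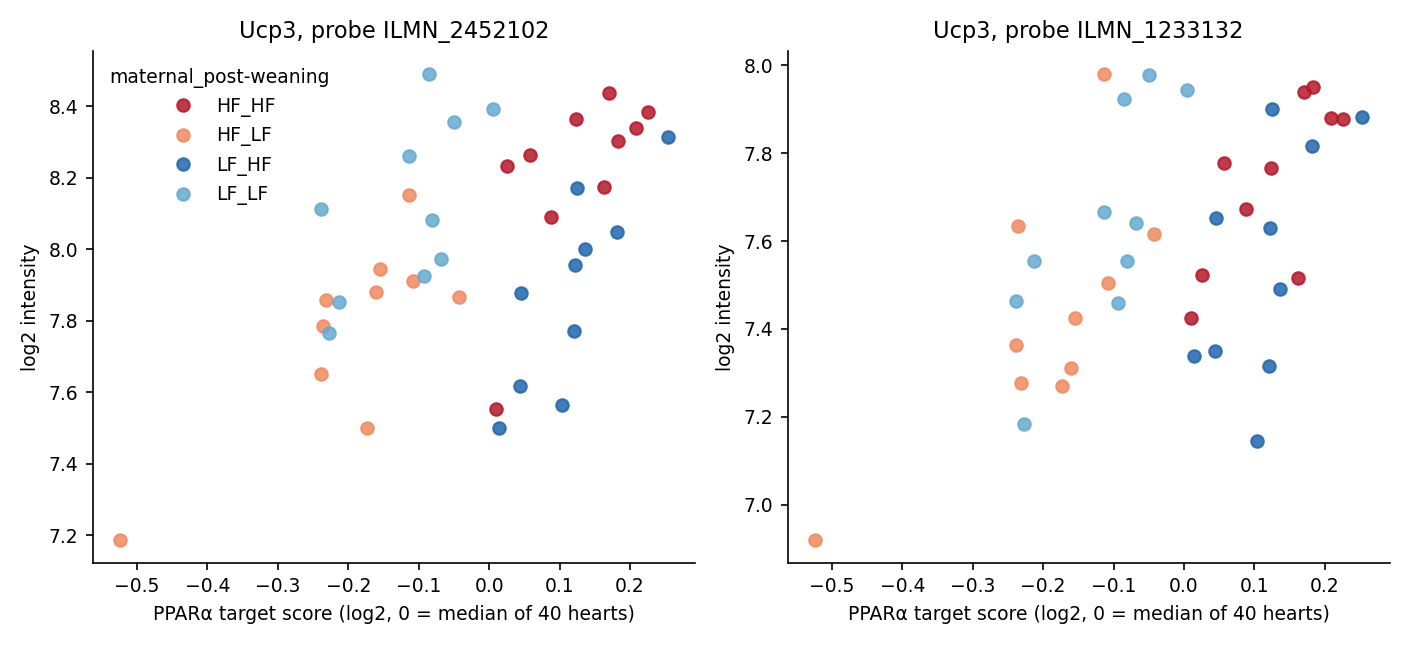
Ucp3 log2 intensity against the PPARα target score of the same heart, for both probes, with hearts coloured by group. HF-fed hearts lie to the right (scores from 0.010 up) and LF-fed hearts to the left (scores up to 0.0047), and within each group hearts with a higher score tended to have more Ucp3 signal, with exceptions such as heart 13 of LF_LF (score -0.24).

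Among all named genes, Abhd1, an α/β hydrolase, was most like Ucp3 on both probes, with r = 0.72 and 0.67 (group-centred log2 intensity, 40 hearts). On ILMN_2452102 it was followed by Pdp2 (0.65), the phosphatase that reactivates pyruvate dehydrogenase, Whamm, Acot1 and Ndufs8 (0.64 each), Plin5 (0.62), a lipid droplet protein of oxidative tissue, Ush1c (0.62) and Rpl3l (0.61), a ribosomal protein of striated muscle. On ILMN_1233132 it was followed by Mlycd (0.67), which breaks down malonyl-CoA, Siah1a (0.62), Fbp2 (0.61), the muscle fructose bisphosphatase, Cox18 (0.61), Acot1 (0.60), Keap1 (0.57) and Got1 (0.57). The lowest r were those of Dipk2a, Cadm1 and Asah1 (-0.61 each) and Emp1 (-0.60) on ILMN_2452102, and of Gpx7, Asah1 and Dynll1 (-0.58 each) and Nxt2 (-0.57) on ILMN_1233132. For all tested probes the 5th to 95th percentile of r ran from -0.32 to 0.38 and from -0.32 to 0.32. Of these genes Pdp2 had the signs of Ucp3 between the diets, at 0.12 and -0.37, with an interaction of 0.49 (adjusted p = 0.943, limma).

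Of the other mitochondrial carriers, 14 were tested out of 19 listed. In offspring of HF-fed and LF-fed dams 2 and 5 of the 14 had an unadjusted p under 0.05 (limma), as had 8.22% and 21.8% of all tested probes. Slc25a20, described above, was the 1 carrier that rose in offspring of HF-fed dams and the 1 that rose in those of LF-fed dams, and 0 fell, while 0.862% and 2.72% of all tested probes passed. Slc25a14 was lower with the HF diet under both, by -0.093 (adjusted p = 0.394) and -0.12 (adjusted p = 0.098, limma). Averaged over the maternal diets, Slc25a20 (0.26, adjusted p = 1.2e-05) and Slc25a14 (-0.11, adjusted p = 0.0068) passed (limma), as did 947 of the 12645 tested probes. Slc25a5, an exchanger of ADP and ATP, had 0.03 in both comparisons (adjusted p = 0.963 and 0.765). Slc25a4 was not among the annotated probes used here. The list had medians of 0.013 and 0.0012, close to those of all probes.

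Ucp1, the third member of the uncoupling proteins proper, lay above the array median on 19 arrays and was therefore not tested (ILMN_2994373). Its group medians were near the array median, at 89.65 in HF_HF, 85.75 in HF_LF, 77.1 in LF_HF and 77.5 in LF_LF. Single hearts were far higher: 3544.7 in heart 133 of LF_LF, 1213.5 in heart 177 of HF_LF and 924.3 in heart 183 of HF_HF, against a highest value of 174.8 in LF_HF. The brown adipocyte score, which includes Ucp1 itself, was 2.13, 1.45 and 1.13 in these hearts. Ucp3 was not high in them, with 243.0, 235.6 and 288.7 on ILMN_2452102, and its group-centred r with the brown adipocyte score was -0.11 on ILMN_2452102 and -0.22 on ILMN_1233132.

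Skeletal muscle is another tissue rich in Ucp3, and 4 of 6 tested fast skeletal muscle markers had the signs of Ucp3 between the diets. Of the 6, out of 12 listed, 6 were higher in HF_HF than in HF_LF (median 0.28). In LF_HF 4 were lower than in LF_LF (median -0.074), and 0 passed limma's adjusted test in either comparison. The 1 marker with an unadjusted p under 0.05 was Mybpc2 in each, higher with the HF diet in both (0.31 and 0.23, limma). The skeletal muscle score ran from -0.098 to 3.55 in HF_HF, from -0.097 to 0.62 in HF_LF, from -0.11 to 0.051 in LF_HF and from -0.088 to 0.25 in LF_LF. The value of 3.55 was that of heart 123, whose Ucp3 intensity of 329.3 on ILMN_2452102 was the 3rd highest of HF_HF. Without this heart HF_HF minus HF_LF was 0.42 on ILMN_2452102 and 0.30 on ILMN_1233132. Over all 40 hearts the group-centred r of Ucp3 with the skeletal muscle score was 0.011 and -0.028. In the 24 hearts with no such score above 1, where the Ucp3 pattern was larger, 2 of the 6 markers were higher in HF_HF than in HF_LF (median -0.19) and 3 lower in LF_HF than in LF_LF (median 0.0063).

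All 6 tested atrial markers were lower in HF_HF than in HF_LF (median -0.38). In LF_HF 4 of 6 were higher than in LF_LF (median 0.18), although with the set of arrays as a term all 6 were lower there (median -0.10). In both comparisons 0 of the 6 had an unadjusted p under 0.05 (limma), against 8.22% and 21.8% of all tested probes. Between the maternal diets all 6 were higher in HF_HF than in LF_HF and in HF_LF than in LF_LF (medians 1.38 and 1.69), while Ucp3 had opposite signs in these comparisons. Of the 6, 2 and 1 had an unadjusted p under 0.05 there, as had 1429 and 508 of the 12645 tested probes. Their smallest adjusted p were 0.357 and 0.996 (limma). The atrial score ran from -3.09 to 1.09 in HF_HF, from -3.05 to 1.58 in HF_LF, from -3.45 to 0.34 in LF_HF and from -3.43 to 1.38 in LF_LF. With the atrial score as a covariate the Ucp3 interaction was 0.66 and 0.37, and HF_LF minus LF_LF was -0.26 on ILMN_2452102 and -0.12 on ILMN_1233132, against -0.35 and -0.21 without it. Ucp3 was lower in hearts with more endothelial signal (r = -0.34 and -0.42) and more fibroblast signal (r = -0.41 and -0.31). Whole hearts were measured, so fewer cells of a type and less RNA per cell cannot be told apart.

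Few of the receptors and coactivators that act on Ucp3 and its neighbours in metabolism passed between the post-weaning diets. Of 16 tested out of 24 listed, 0 passed in offspring of HF-fed dams (limma; 0.862% of all tested probes), where 3 had an unadjusted p under 0.05, as had 8.22% of all tested probes. In offspring of LF-fed dams 1 passed, against 2.72% of all tested probes, and 3 had an unadjusted p under 0.05 (limma), as had 21.8% of all tested probes. The signs of Ucp3 were shared by 5 of the 16 (31.2%), against 17.3% of all tested probes. These were Ppara, Pparg, Ppargc1a, Rxra and Srebf1. Ppara, Rxra and Srebf1 were dim, with group geometric means from 87.3 to 100.2 against array medians of 79.2 to 79.5. Rxra, named after its values were seen, had 0.10 with HF-fed dams and -0.14 with LF-fed dams (adjusted p = 0.515 and 0.172, limma). Its interaction was 0.24 (SE 0.073, adjusted p = 0.943, limma), the 1 of the 16 with an unadjusted p under 0.05 (0.0022). The gene that passed was Med1, a subunit of the mediator complex, which did not share these signs. With the HF diet it was higher by 0.30 in offspring of LF-fed dams (adjusted p = 0.0475, limma) and had 0.09 in those of HF-fed dams. Its call was lost in 15 of the 20 fits that left out 1 heart. It was kept without heart 99 of LF_HF or heart 15, 102, 133 or 211 of LF_LF. Ppara had 0.07 (SE 0.056) in offspring of HF-fed dams and -0.01 (SE 0.047) in those of LF-fed dams (adjusted p = 0.888 and 0.913, limma), and Esrra 0.09 and 0.08. Pparg had 0.02 and -0.28 (adjusted p = 0.994 and 0.0933), and Ppargc1a, a coactivator of mitochondrial genes, 0.10 and -0.09 (adjusted p = 0.895 and 0.393). Ppard was not tested. Of 9 tested genes that remove superoxide and peroxide, 0 passed in offspring of HF-fed dams and 1 in those of LF-fed dams (limma), against the same 0.862% and 2.72% of all tested probes. An unadjusted p under 0.05 was found for 1 and 4 of the 9, all higher with the HF diet, and for 8.22% and 21.8% of all tested probes. Gpx4, which reduces lipid peroxides, was the gene that passed, at 0.26 (adjusted p = 0.0475, limma), a call lost in 14 of 20 such fits and kept without heart 201 of LF_HF or heart 15, 100, 102, 133 or 211 of LF_LF.

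No relation of Ucp3 to the body measures of the animals passed the test. Over weight at 3 weeks, later weight, glucose and length, 8 group-centred relations were computed with r between -0.12 and 0.18 (permutation test within groups, two-sided, 40 hearts, or 38 for length). Spearman's rho lay between -0.13 and 0.15. All adjusted p were 0.749 for Pearson's r and 0.744 for Spearman's rho. Within the sets of arrays r ran from -0.52 to 0.40, and without the 2 animals farthest from the median from -0.24 to 0.13.

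Inside the groups the largest Pearson's r was that of weight at 3 weeks in HF_HF, with r of 0.73 on ILMN_2452102 (rho 0.71) and 0.76 on ILMN_1233132 (rho 0.66). Their permutation p were 0.01035 and 0.01017 for r, and 0.02687 and 0.04395 for rho, but over the 32 relations within groups the adjusted p were 0.166 for r and 0.378 for rho. Without the 2 animals farthest from the median weight r was 0.38 and 0.62. The HF_HF animals came from 4 cages, and the permutations took no account of them. The heaviest at 3 weeks, those of hearts 172, 173 and 174, shared cage 20. That cage had the highest mean Ucp3 intensity of the HF_HF cages, 332.2 on ILMN_2452102 and 242.5 on ILMN_1233132. Weight and cage were not separated here. The largest rho was that of glucose in HF_LF on ILMN_1233132, at 0.73 (permutation p = 0.02065, adjusted p = 0.378), with r of 0.435, or 0.60 without the 2 animals farthest from the median. In LF_LF the relation to weight at 3 weeks had r of -0.52 and -0.42 (adjusted p = 0.646, permutation test), and the difference between the groups was not tested.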

How the data were processed

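RNA of 40 hearts was hybridised to Illumina MouseRef-8 v2.0 beadchips, 1 array per animal, and the deposited table holds fluorescence intensity on a linear scale, which the authors obtained with BeadStudio and normalised by quantiles across all heart arrays. The BeadStudio version and any genome build are not given in the sources used here. Since quantile normalisation gives every array the same distribution, a difference is relative to the other probes. Precision rests on 10 animals per group, and the p-values measure the spread between them. These animals came from only 4 cages, or 5 in HF_LF, and cage mates may not be independent. This matters most for the maternal diet and the interaction, since no cage number occurred under both maternal diets. The main fits and the permutations within groups take no account of cages, and the numbers that passed with cage means are given below.

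Groups and animal numbers came from the labels. Intensities were taken to log2 with no pseudocount. Of 25697 probes, 23978 carried 1 gene symbol, 0 several and 1719 none in the platform annotation. Tests were run on probes brighter than their array's median on at least 20 arrays. Each pair of groups was compared on its own 20 arrays with limma 3.58.1 (R 4.3.3, eBayes with an intensity trend), and the interaction and averages on all 40, with Benjamini-Hochberg adjustment over 12645 probes at a false discovery rate of 5%. The script was tested on simulated data. Relations to body measures were tested by 100000 permutations within groups, written in numpy 2.4.6 (ranks from SciPy 1.17.1, Python 3.11.15).

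The sets of 25 and 15 arrays were inferred from the first principal component of the untested dim probes (16.4% of their variance), since the labels give no slide or date. A marker score is the mean log2 intensity of a list less each probe's median over the hearts. The named genes followed a rule: all Ucp3 probes, a few fixed members of each list, the members that passed (up to 6 PPARα targets with the smallest p per comparison, up to 3 in other lists), the 8 genes with the highest and 4 with the lowest correlation to each Ucp3 probe, and the largest interactions. In the gene lists each gene was read on its tested probe with the highest mean intensity. Among the correlated genes it was read on the probe with the largest absolute r. Acot1 was thus read on ILMN_3139875 beside ILMN_2452102 and on ILMN_3062267 beside ILMN_1233132. The members, the 17 gene lists and the tests were chosen with earlier results of these data known. Alternatives covered the array sets, cages, hearts left out, array weights, filters, background, variance trend and covariates. Ucp2 was not analysed here.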

Additional observations from a re-analysis of the deposited data

Results flagged for a closer look

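In 28 groups of 10 values (both Ucp3 probes, Ucp1 and 4 scores, by diet group), 11 had an extreme heart whose gap to its neighbour exceeded Dixon's critical value of 0.466 times the range of the group. Chance flags about 1 in 20 groups, and several of these values come from the same hearts.

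For Ucp3 this was heart 122 of HF_HF, with 187.7 on ILMN_2452102 and 272.2 in the next lowest heart. It lowers the mean of the group with the highest Ucp3 level. The lowest PPARα target score of HF_LF, -0.52 in heart 109, also stood apart from the next, -0.24.

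Ucp1 stood apart as the highest value of its group in heart 183 of HF_HF (924.3, next 219.3), heart 177 of HF_LF (1213.5, next 367.7) and heart 133 of LF_LF (3544.7, next 433.6). The brown adipocyte score, which includes Ucp1, did so in the same 3 hearts, at 1.13, 1.45 and 2.13. The fast skeletal muscle score stood apart in heart 123 of HF_HF (3.55, next 0.21) and heart 134 of LF_LF (0.25, next 0.077). The cardiomyocyte score of LF_LF had its lowest value in heart 101, at -0.32 with -0.11 next, and this heart was also the lowest of its group on both Ucp3 probes.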

How the results depend on the processing

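Over the alternatives named for Ucp3, and in every fit that left out 1 heart, both Ucp3 probes kept the sign of each of the 4 pairwise differences and of the interaction. On ILMN_2452102 the interaction lay between 0.62 and 0.89, and on ILMN_1233132 between 0.36 and 0.66, the highest value (0.66) being that without the 16 hearts that carried signal of other tissues. In offspring of LF-fed dams ILMN_1233132 ranged from -0.23 to -0.029. The exception was the PPARα target score as a covariate, added after the data were seen: HF_HF minus HF_LF was then -0.14 on ILMN_2452102 and -0.22 on ILMN_1233132, LF_HF minus LF_LF -0.79 and -0.61, and their average -0.45 and -0.40. The score differed between the diets without overlap.

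The numbers of probes that passed depended on the processing, and the cause was not tested beyond the fewer samples of some fits. In offspring of HF-fed dams 109 passed, against 22 and 1 within the larger and smaller set of arrays, 19 with cage means, 19 without the 16 hearts, 183 with array weights, and 75 to 131 leaving out 1 heart. In offspring of LF-fed dams 344 passed, against 63 and 0 within the sets, 4 with cage means, 3 without the 16 hearts, 146 with no filter on dim probes and 736 with the atrial score as a covariate. Leaving out 1 heart gave 146 to 663 there, with 598 and 663 without hearts 15 and 211 of LF_LF, 175 to 228 without hearts 14, 100, 101, 134 or 210 of LF_LF, and 146 to 228 without hearts 199, 200, 201, 207, 208 or 209 of LF_HF.

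Between the maternal diets, HF-fed offspring had 0 probes, 4 with the set of arrays as a term, 9 with array weights, and 0 to 15 leaving out 1 heart (15 and 9 without hearts 122 and 181 of HF_HF, 2 without heart 199 of LF_HF, and 1 without heart 172 of HF_HF or 24 of LF_HF). LF-fed offspring had 5, against 0 in the smaller set, with cage means and without the 16 hearts, 10 with array weights, 2 with no filter, 3 with all 40 arrays in 1 fit, 23 with the atrial score, and 0 to 6 leaving out 1 heart (0 to 3 without hearts 54, 55, 109, 127, 177, 227 or 228 of HF_LF or 13, 100, 101, 102, 133, 134 or 211 of LF_LF). The interaction had 0 in every setting, with 431 at an unadjusted p under 0.05 (limma).

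Of the PPARα targets, 8 rose in offspring of HF-fed dams, against 1 and 0 within the sets, 2 with cage means, 4 without the 16 hearts, 13 with array weights and 6 to 10 leaving out 1 heart. In offspring of LF-fed dams 10 rose, against 3 and 0 within the sets, 0 with cage means, 0 without the 16 hearts and 8 to 11 leaving out 1 heart.

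No paired analysis was possible because the replicate numbers follow accession order and tie no animal to another. Over all hearts, cage numbers were used as a random block, with 110 probes that passed in offspring of HF-fed dams and 274 in those of LF-fed dams. The alternatives for Ucp2 could not be run, since no probe was annotated to it.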
